A study of Mus musculus with 6 samples.

Results

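The NF-kB subunits and their feedback regulators were taken as 10 genes out of the 21956 genes in the deposited table: the Rel proteins Rela, Relb, Nfkb1 and Nfkb2, the inhibitors Nfkbia and Nfkbie, and the feedback and survival regulators Tnfaip3, Tnip1, Birc3 and Traf1. They were taken by symbol and not by a cut on their measured values, although earlier results of these data were known when they were chosen. All 10 passed the filter on low counts and were tested. None passed the test between livers of mice with and without the endothelial Sting deletion.

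NF-kB is a family of dimeric transcription factors that is held in the cytoplasm by inhibitor proteins. In the canonical route, receptors for tumour necrosis factor, interleukin 1 and microbial products activate the IKK kinase complex, the inhibitor is degraded, and dimers of RelA and p50 enter the nucleus. In the noncanonical route, the kinase NIK drives processing of p100, the Nfkb2 product, to p52, which pairs with RelB. Several target genes encode the pathway's own brakes, so that transcripts such as Nfkbia and Tnfaip3 are widely read as a record of recent NF-kB activity. STING, the adaptor of cytosolic DNA sensing, can also engage NF-kB besides its interferon branch.

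The libraries came from whole liver of 6 mice, sequenced as polyA RNA. In 3 mice both Sting alleles were floxed and a Cdh5-Cre transgene was present, which places the recombinase under an endothelial cadherin promoter (Stingfl/fl Cdh5-Cre+, knockout). The other 3 were Stingfl/fl littermates without the transgene (Stingfl/fl Cdh5-Cre-, control), so that all 6 mice carried the floxed alleles and Cre was present in the knockout group only. Every mouse ate chow to 8 weeks of age, followed by 10 weeks on CDAHFD, a high-fat diet low in choline and built on free amino acids that induces steatohepatitis. The transgene and the deletion cannot be told apart in this design, and livers of mice kept on chow were not analysed here.

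Promoter sequences are shown for those genes whose windows hold the decameric κB consensus, because a gene with such a site can be bound by the factors that these same genes encode. Windows of 300 bases, 250 before and 50 after the transcript start, were taken from RefSeq on GRCm38.p6 and searched on both strands. Windows were found for 8 of the 10 genes, Nfkb1 and Relb being the other two. A match lay in 7 of the 11 windows of these 8 genes, against 4.51% of 32851 mouse promoter windows. The windows are not separate units, because Nfkb2 holds several, and overlapping windows of its later starts share a site. By gene, 5 of the 8 had a match. Matches fell in Nfkb2, Nfkbia, Nfkbie, Tnfaip3 and Tnip1, at 9 separate sites once overlapping matches were merged, and in none of the windows of Rela, Birc3 and Traf1. Each sequence reads 5′ to 3′ on the strand of its gene, with the κB match in capitals and the coordinates of the match. The 7 sites shown lie in 1 window of each gene, and the other 2 lie in windows of later Nfkb2 starts.
Nfkbia, chr12:55492667-55492676, minus strand, match starting at -29 from the transcript start: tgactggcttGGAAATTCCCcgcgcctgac
Nfkbie, chr17:45555594-45555603, plus strand, match starting at -106: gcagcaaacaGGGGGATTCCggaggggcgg
Nfkb2, chr19:46304698-46304707, plus strand, match starting at -39: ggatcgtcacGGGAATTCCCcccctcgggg
Nfkb2, chr19:46304726-46304735, plus strand, match starting at -11: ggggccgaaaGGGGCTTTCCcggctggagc
Tnip1, chr11:54962988-54962997, minus strand, match starting at -57: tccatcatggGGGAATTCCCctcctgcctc
Tnfaip3, chr10:19015526-19015535, minus strand, match starting at -125: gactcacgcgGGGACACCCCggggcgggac
Tnfaip3, chr10:19015413-19015422, minus strand, match starting at -12: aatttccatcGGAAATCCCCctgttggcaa
The sites of Nfkb2 at -39 and of Tnip1 read as the consensus on both strands. A match describes the letters in the window and does not show that a factor was bound there in these livers.

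The libraries held 16704663 to 21025466 counts. Sting1 itself was lower in the knockout livers, at 12.1, 17.4 and 11.03 CPM in control replicates 1 to 3 and 5.64, 6.54 and 4.396 CPM in knockout replicates 1 to 3, where CPM is the gene's count relative to the TMM-scaled library size. Its log2 fold change was -1.29 (standard error 0.23) and its adjusted p 0.357 in edgeR, with 0.00154 in DESeq2. The labels give liver as the tissue and sinusoidal endothelium as the cell type. Hepatocyte markers summed to 84140 to 134000 CPM per library and sinusoidal endothelial markers to 420 to 534.5 CPM (by library totals), so that the values are those of whole liver. Control replicate 2 stood apart, with a TMM factor of 1.26 against 0.922 to 1.01 in the other libraries. In bulk tissue, fewer cells of a type and less RNA per cell cannot be told apart.

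Across the NF-kB genes the group means lay close together. The median log2 fold change of the 10 was -0.0128, beside 0.00826 for all 13197 genes tested, and 4 lay above 0 and 6 below, against 51.2% and 48.8% of all genes. In edgeR's quasi-likelihood test with Benjamini-Hochberg adjustment 0 of the 10 passed, against 0% of all genes, and their adjusted p ran from 0.544 to 0.990. At an unadjusted p under 0.05 there were 0 of 10, against 3.75% of all genes higher and 7% lower, and DESeq2 called 0 of 10, against 0.902% of all genes. With library totals in place of TMM, 2 of the 10 had an unadjusted p under 0.05, Relb at 0.0483 and Birc3 at 0.0437 in edgeR, where 13.9% of all genes were lower at that level. With TMM the fold changes ran from -0.36 for Relb to 0.27 for Nfkbie, and 73.5% of all genes tested lay within the larger of these sizes. In this TMM fit the 95% intervals left out a 2-fold change in either direction for all 10 genes, and a 1.5-fold change for 7 of the 10. Intervals under other scalings and without single libraries are not given. With library totals the log2 fold change of Relb was -0.594, so these bounds hold for the TMM fit only.

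**Figure D1:**
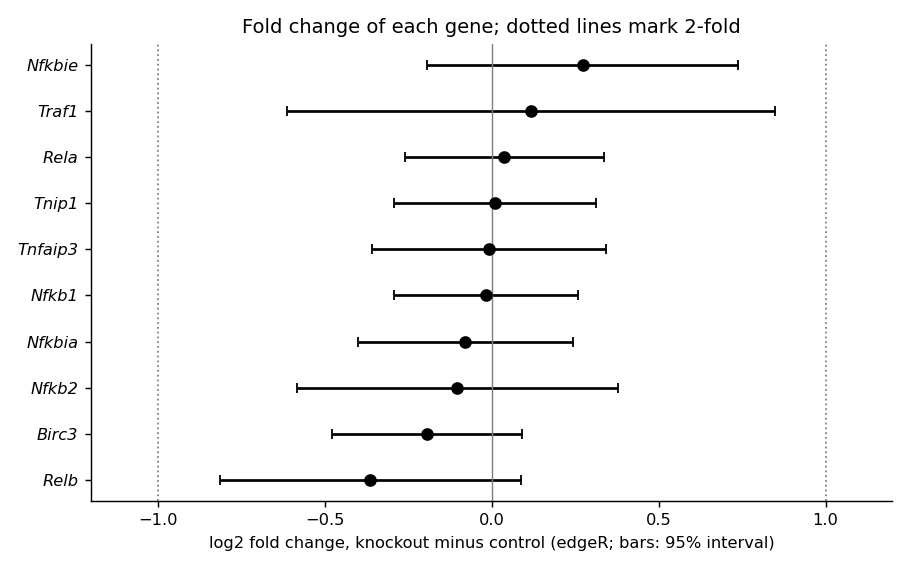
Log2 fold change of each gene, knockout minus control, from edgeR with TMM, with points for the estimate and bars for the 95% interval over 3 knockout and 3 control livers. Every interval spans 0 and stays within the dotted lines at 2-fold, from Relb at -0.36 to Nfkbie at 0.27.

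Among the Rel proteins, the canonical pair was the steadiest. Rela (chromosome 19, 5637483 to 5648130, plus strand, GRCm38) encodes p65, the main transactivating subunit. It stood at 44.9, 53.2 and 43.5 CPM in control replicates 1 to 3 and at 47.0, 52.7 and 45.7 CPM in knockout replicates 1 to 3. The highest value of each group was its replicate 2, and the groups overlapped throughout. The means were 47.2 ± 5.26 (SD, n = 3) and 48.4 ± 3.72 CPM, at a log2 fold change of 0.04 and an interval from -0.26 to 0.34. Nfkb1 (chromosome 3, 135584655 to 135691547, minus strand) encodes p105, the precursor of the DNA-binding subunit p50. It measured 40.4, 47.9 and 40.5 CPM in the control and 42.3, 43.5 and 41.5 CPM in the knockout livers. All 3 knockout values lay between the lowest and highest control value, and the log2 fold change was -0.02, with an interval from -0.29 to 0.26.

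The noncanonical subunits varied more. Relb (chromosome 7, 19606217 to 19629438, minus strand) encodes the partner of p52 and is known for its role in dendritic cells and lymphoid stroma. It had 142, 160 and 117 counts in the control and 93, 91 and 105 in the knockout libraries, or 7.17, 7.62 and 5.71 against 4.95, 5.22 and 5.77 CPM. Knockout replicate 3 lay just above control replicate 3, and otherwise the knockout values were the lower ones. The means were 6.83 ± 1.00 (SD, n = 3) and 5.31 ± 0.42 CPM. The log2 fold change of -0.36 had a standard error of 0.20 and an interval from -0.81 to 0.09, which reaches from 0.569 of the control level to 1.06 times it. The edgeR p after Benjamini-Hochberg adjustment was 0.544. An exact two-sided permutation of the 6 libraries gave p = 0.2, and with 3 against 3 it cannot go under 0.1.

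Nfkb2 (chromosome 19, 46304320 to 46312385, plus strand) encodes p100, at once the precursor of p52 and an inhibitor of RelB dimers. Its values were 16.1, 23.4 and 17.3 CPM in the control and 13.5, 18.5 and 20.9 CPM in the knockout livers. The highest value of all was control replicate 2 and the lowest was knockout replicate 1, and the 2 ranges overlapped. On the log2 scale the difference was -0.10 (standard error 0.21). Psd overlaps Nfkb2 on the opposite strand, and the sources used here do not say whether the counting used strand. Psd had 0 to 13 counts per library, beside 254 to 492 for Nfkb2.

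**Figure D2:**
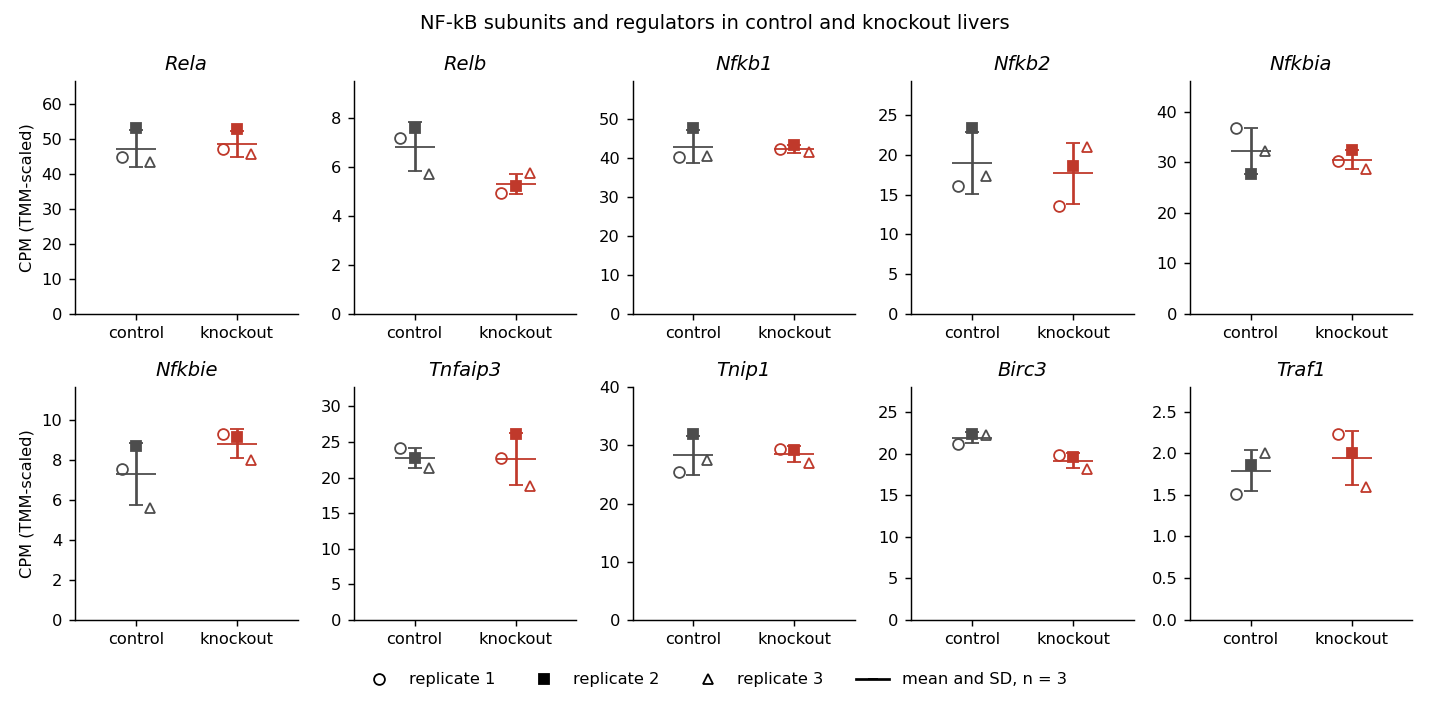
TMM-scaled CPM of the 10 genes in 3 control (grey) and 3 knockout (red) livers. Circles, squares and triangles mark replicates 1, 2 and 3, and lines give the mean and SD. The groups overlap for 9 genes, and for Birc3 the knockout values of 18.1 to 19.8 CPM lie below the control values of 21.1 to 22.4 CPM.

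The inhibitors showed no shared direction. Nfkbia (chromosome 12, 55489410 to 55492647, minus strand) encodes IκBα, the inhibitor that is degraded on canonical activation and resynthesised as an NF-kB target. It measured 36.9, 27.7 and 32.2 CPM in the control and 30.3, 32.5 and 28.7 CPM in the knockout livers. The 3 control values bracketed those of the knockout, and control replicate 2, the highest library for 6 of the 10 genes in CPM, was the lowest for Nfkbia. Its log2 fold change was -0.08, over an interval from -0.40 to 0.24. Nfkbie (chromosome 17, 45555703 to 45563169, plus strand) encodes IκBε, a slower inducible inhibitor. It had 149, 183 and 115 counts in the control and 175, 159 and 145 in the knockout libraries, or 7.53, 8.72 and 5.61 against 9.31, 9.12 and 7.97 CPM. Control replicate 3 was the low value and control replicate 2 lay within the knockout range. The log2 fold change of 0.27 had a standard error of 0.20, an interval from -0.19 to 0.74 and an edgeR p of 0.646 after Benjamini-Hochberg adjustment.

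The genes of the ubiquitin-editing brake overlapped between the groups. Tnfaip3 (chromosome 10, 19000910 to 19015657, minus strand) encodes A20, which restrains signalling from the tumour necrosis factor receptor. It stood at 24.1, 22.8 and 21.4 CPM in the control and 22.8, 26.2 and 18.8 CPM in the knockout livers. The knockout livers held both the highest and the lowest value, and the means of 22.7 ± 1.36 (SD, n = 3) and 22.6 ± 3.66 CPM were almost equal. Its log2 fold change was -0.00888, with an interval from -0.36 to 0.34. Tnip1 (chromosome 11, 54910785 to 54962917, minus strand) encodes ABIN1, a ubiquitin-binding partner of A20. It measured 25.5, 32.0 and 27.5 CPM in the control and 29.4, 29.1 and 27.0 CPM in the knockout livers, so that the knockout values again fell inside the control range. Tnip1 had a log2 fold change of 0.00911, with an interval from -0.29 to 0.31.

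Birc3 was the one gene of the 10 whose groups did not overlap in CPM. Birc3 (chromosome 9, 7848699 to 7873186, minus strand) encodes cIAP2, a ubiquitin ligase that works beside TRAF proteins at receptors and limits cell death. It had 418, 470 and 455 counts in the control and 372, 341 and 329 in the knockout libraries, or 21.1, 22.4 and 22.2 against 19.8, 19.6 and 18.1 CPM. All 3 knockout livers lay below all 3 controls, as was so for 9.14% of all genes tested, and 0 of the 10 genes lay above in all 3, against 7.25% of all genes. The means were 21.9 ± 0.68 (SD, n = 3) and 19.1 ± 0.93 CPM. Birc3 differed by -0.19 on the log2 scale (standard error 0.13, interval from -0.48 to 0.09). The edgeR p after Benjamini-Hochberg adjustment was 0.598, and an exact two-sided permutation gave the minimum of p = 0.1.

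Traf1 was the rarest transcript. Traf1 (chromosome 2, 34941750 to 34961772, minus strand) encodes an adaptor of tumour necrosis factor receptors that is induced in lymphocytes and myeloid cells. It had 30, 39 and 41 counts in the control and 42, 35 and 29 in the knockout libraries, or 1.52, 1.86 and 2.00 against 2.23, 2.01 and 1.59 CPM. The groups overlapped in CPM, and at this depth the interval of the log2 fold change was the widest of the 10, from -0.61 to 0.85 around 0.12. In TPM, the deposited unit that scales for transcript length, the same libraries stood in another order. They were at 2.07, 2.10 and 1.604 TPM in the control and 1.58, 1.5 and 1.01 TPM in the knockout livers, with no overlap. The CPM (by library totals) per TPM of Traf1 follows the transcript length behind the TPM, together with a factor of the whole library. It was 0.743, 1.11 and 1.22 in the control and 1.302, 1.26 and 1.46 in the knockout libraries. Control replicate 1 was the lowest, and control replicate 3 lay near knockout replicate 2. At 29 to 42 counts, whether transcript length differed between the groups was not tested.

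In length-scaled levels the 10 genes kept to a similar ladder in both groups. In control livers Nfkbia led with 40.5 ± 4.03 TPM (SD, n = 3), followed by Rela at 37.3 ± 10.2 and Nfkb1 at 28.2 ± 8.86 TPM. Tnip1 followed at 24.1 ± 6.81, Birc3 at 18.7 ± 5.11, Nfkb2 at 12.8 ± 5.24 and Tnfaip3 at 12.3 ± 1.45 TPM. The lowest 3 were Relb at 6.31 ± 1.95, Nfkbie at 6.16 ± 2.36 and Traf1 at 1.92 ± 0.28 TPM. Neighbours in this order overlapped in their control ranges, except Tnfaip3 over Relb and Nfkbie over Traf1. In knockout livers Nfkbia again led, at 32.5 ± 2.27 TPM, with Rela at 30.9 ± 1.79 TPM, and their ranges overlapped. The knockout order differed in that Tnfaip3 stood at 10.4 ± 1.62 TPM over Nfkb2 at 9.74 ± 2.13 TPM, with overlapping ranges, and Nfkbie at 6.10 ± 0.53 over Relb at 4.21 ± 0.28 TPM, with no overlap.

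**Figure D3:**
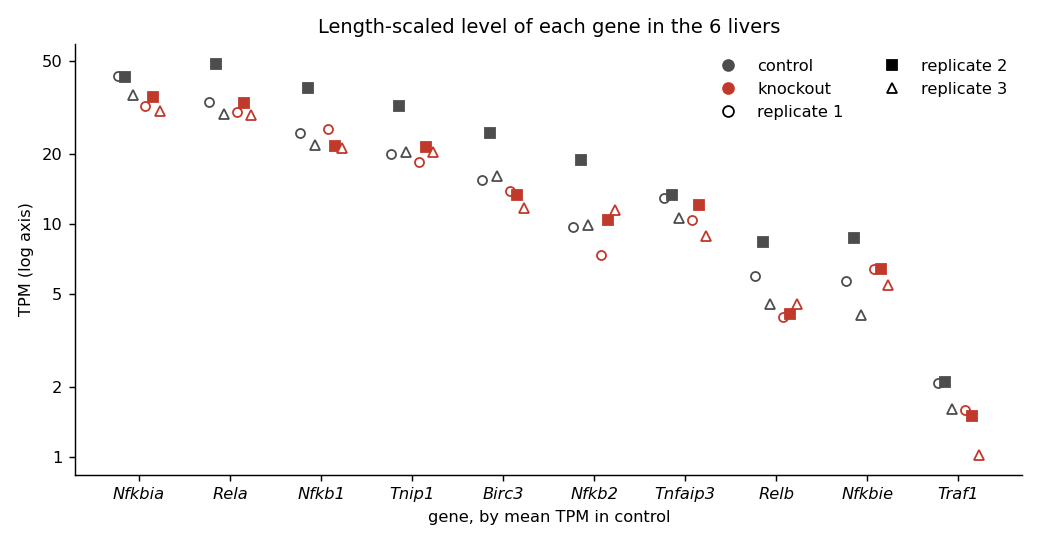
TPM of each gene on a log axis in the 3 control (grey) and 3 knockout (red) livers, with symbols by replicate and genes ordered by their control mean. Levels run from 1.01 to 48.9 TPM, and control replicate 2 (filled grey square) is the highest library for 9 of the 10 genes.

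Variation between animals was small for most of these genes and followed single libraries more than the groups. The within-group SD of log2 CPM was 0.0592 for Birc3, a value that 98.6% of all genes exceeded, 0.102 for Nfkb1 and 0.128 for Tnip1. It was widest for Nfkb2, at 0.305, which 37% of all genes exceeded. Control replicate 2 held the highest CPM for 6 of the 10 genes, against 25.3% of all genes, and the highest TPM for 9 of the 10, against 67.2% of all genes. Nfkb1 and Tnip1 had the most similar profiles over the 6 libraries, with a root mean square distance of 0.0449 between their mean-centred log2 CPM. Rela was nearest to Nfkb1, at 0.0539, and Tnfaip3 was the nearest to Nfkbia, at 0.14. Among all other tested genes, Dapk1, at a distance of 0.0203, Son, at 0.0256, and Ccdc90b, at 0.0292, lay closest to the mean profile of the 10. These distances describe 6 libraries, of which control replicate 2 stood highest in that mean profile, at 0.132, and knockout replicate 3 lowest, at -0.0764.

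**Figure D4:**
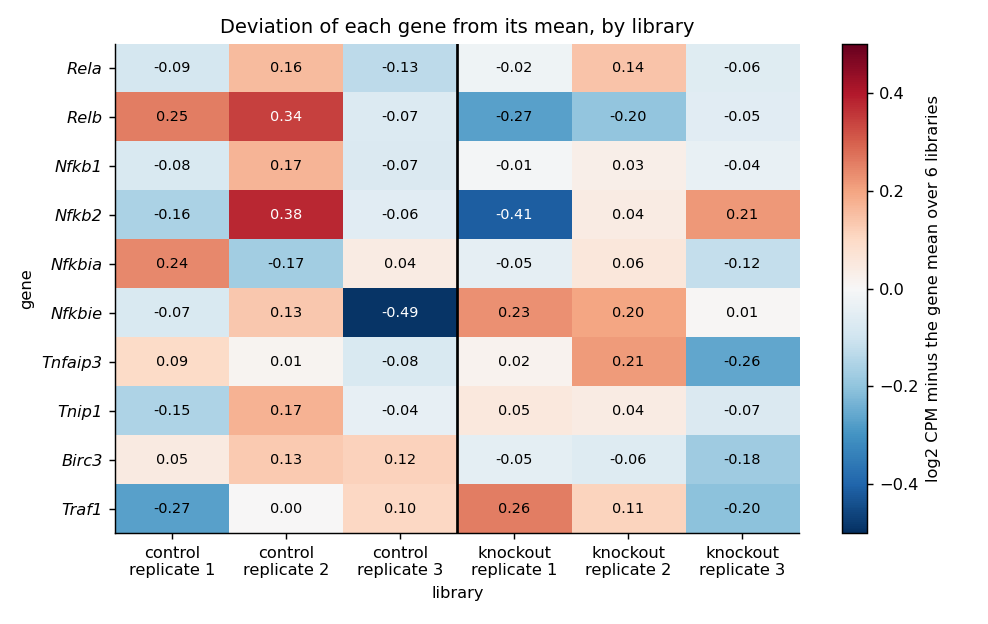
Log2 CPM of each gene (rows) minus its mean over the 6 libraries (columns), with the value in each cell. Rela, Nfkb1 and Tnip1 share the raised value of control replicate 2 (0.158 to 0.175), whereas Nfkbia is at -0.17 there, and of the 10 genes only Birc3 has 1 sign throughout each group.

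Ratios between genes of one library do not depend on the scaling of that library, although in TPM they carry the estimated transcript lengths. The TPM of Relb relative to Rela was 0.179, 0.172 and 0.154 in the control and 0.132, 0.125 and 0.154 in the knockout livers, so that control replicate 3 and knockout replicate 3 nearly met without overlapping. Birc3 relative to Rela was 0.465, 0.504 and 0.544 in the control and 0.458, 0.405 and 0.397 in the knockout livers, also without overlap in TPM. In counts Birc3 and Rela had 372 and 883 in knockout replicate 1, and 470 and 1117 in control replicate 2. By counts the groups just overlapped in this ratio, so that its separation in TPM depended on the estimated transcript lengths. The log2 TPM ratios of Relb and Birc3 to Rela differed by -0.30 and -0.27. Each had the minimum exact permutation p of 0.1 (two-sided), or 0.55 after Benjamini-Hochberg adjustment over the 11 ratios computed. These ratios were chosen after the values were seen, and the other 9 overlapped between the groups. Nfkb2 relative to Nfkb1 was 0.447 ± 0.0489 (SD, n = 3) in the control and 0.436 ± 0.132 in the knockout livers. Nfkbia relative to Rela was 1.13 ± 0.221 and 1.05 ± 0.0142, with the wider spread among the controls.

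Library totals moved all 10 genes down together, and the TPM scale moved them down by unequal amounts. With library totals in place of TMM the median of the 10 was -0.237, where all genes tested shifted to -0.209, and on log2(TPM + 1) it was -0.282 against -0.198. Relative to those shifts the median of the 10 was -0.028 and -0.084. Rela, Tnip1 and Traf1 lay below 0 under library totals and on the TPM scale and above 0 under TMM. Relb was at -0.385 and -0.258 relative to the shifts, Birc3 at -0.205 and -0.274, and Nfkbie at 0.241 and 0.237. Traf1 was at 0.11 and -0.111, so that it changed sign between these scales. In TPM the knockout libraries lay below all controls for Relb, Nfkbia, Birc3 and Traf1, as they did for 18.6% of all genes, and above all controls for 0 of the 10, against 1.38%. Without control replicate 2 the median was 0.0813, and Nfkb1 and Nfkb2 lay above 0 at 0.08 and 0.09.

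The wider pathway was read from 7 further lists of 105 genes, of which 99 were tested and 54 lay above 0, with a median log2 fold change of 0.04. In edgeR with Benjamini-Hochberg adjustment 0 of the 99 passed. At an unadjusted p under 0.05 there were 8 higher and 3 lower in the knockout, or 8.08% and 3.03% of the lists against 3.75% and 7% of all genes, and DESeq2 called 1. Over the fits that leave out 1 library these counts ran from 6 to 9 higher and from 0 to 5 lower, where the shares of all genes ran from 2.41% to 4.43% and from 3.61% to 8.63%. Without knockout replicate 3 there were 7 higher and 0 lower, against 2.41% and 3.61% of all genes, and without control replicate 2 there were 7 and 2, against 3.52% and 4.13%. With library totals, which shift all genes down, there were 2 higher and 9 lower, or 2.02% and 9.09% of the lists against 1.02% and 13.9% of all genes. On log2(TPM + 1) the share higher was like that of all genes, at 1.01% against 0.955%, with 8.08% against 10.9% lower. With a block for the replicate number it was 7.07% against 5.75% higher and 4.04% against 7.83% lower. The larger share of higher genes thus depended on the scale.

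Among the other Rel and IκB proteins, 4 of 5 lay above 0, with a median of 0.06. Bcl3, a nuclear IκB protein that binds p50 and p52 dimers, stood at 21.2, 24.6 and 15.2 CPM in the control and 31.8, 34.9 and 26.7 CPM in the knockout livers. All knockout livers lay above all controls, as for 7.25% of all genes tested, with a log2 fold change of 0.61 (standard error 0.20). Bcl3 had the smallest p of its list, which favours such a separation. Nfkbib, which encodes IκBβ, was at 0.19 and Nfkbiz, a nuclear cofactor induced by interleukin 1, at 0.06. None of the list passed, and Bcl3 had an adjusted p of 0.381 in edgeR.

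Kinases of the IKK node had a median of -0.14, with 5 of 11 above 0. Tab2, which links ubiquitin chains to the kinase TAK1, measured 82.8, 96.4 and 88.1 CPM in the control and 67.3, 75.7 and 53.7 CPM in the knockout livers. Ikbkg, which encodes the IKK scaffold NEMO, measured 77.4, 89.6 and 82.6 CPM against 54.0, 76.2 and 62.2 CPM. In both genes every knockout liver lay below every control, as for 9.14% of all genes tested. The log2 fold changes were -0.44 and -0.38. Both are named for a small p in their list, which favours such a separation. Map3k7, which encodes TAK1 itself, was at -0.24, also without overlap, and Tab3 was at -0.48, with overlap. The adjusted p of Tab2 was 0.392 and that of Ikbkg 0.443 in edgeR, so that neither passed.

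Adaptors and receptors were balanced around 0. The TRAF, ubiquitin ligase and adaptor list had 10 of 18 above 0, with a median of 0.06. Birc2, the neighbour and close relative of Birc3, was at -0.41 (standard error 0.20), with overlap. Rbck1 and Ube2n, the next by p in that list, went the other way, at 0.20 and 0.21, with all knockout livers above all controls. Other negative regulators had 8 of 17 tested above 0 and a median of -0.02, with Ier3, an early response gene, at -0.57 and Usp18, an interferon-induced protease, at 0.34. Receptors had 6 of 12 tested above 0 and a median of -0.00759. Tnfrsf12a, the TWEAK receptor that engages the noncanonical route, stood at 23.9 ± 7.01 (SD, n = 3) in the control and 16.3 ± 1.24 CPM in the knockout livers, with no overlap. Tnfrsf1a, the main receptor for tumour necrosis factor, was at 98.8 ± 5.68 and 117 ± 4.45 CPM, also without overlap. Both receptors are named for a small p. Of all genes tested, 9.14% lay below and 7.25% above in every knockout liver. None of these genes passed the test.

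Canonical target genes had 18 of 30 tested above 0, with a median of 0.08. Ccl5, a T cell chemokine, stood at 5.31, 3.43 and 4.88 CPM in the control and 12.9, 8.84 and 8.35 CPM in the knockout livers, with a log2 fold change of 1.15. Its adjusted p was 0.357 in edgeR and 0.0141 in DESeq2, the one call among the 99 genes. Irf1, an interferon response factor, measured 23.6, 30.9 and 31.6 CPM against 44.2, 43.1 and 40.1 CPM, at 0.57. Cxcl1, a neutrophil chemokine, measured 11.9, 12.4 and 14.5 CPM against 17.9, 30.6 and 18.1 CPM, at 0.78. Each of these separated the groups, as did 7.25% of all genes tested in this direction, and each is named for a small p. Icam1, an adhesion molecule of the endothelium chosen after its value was seen, was at -0.00207. Il1b, which encodes interleukin 1β, at 0.78, and Nos2, which encodes inducible nitric oxide synthase, at 1.52, also had an unadjusted p under 0.05, and both are named after their values were seen. Noncanonical targets had 3 of 6 tested above 0 and a median of 0.02, with Enpp2, which encodes autotaxin, at 0.47 and the B cell chemokine Cxcl13 at 2.199. Cxcl13 stood at 3.62 CPM in knockout replicate 1 and at 0 to 0.659 CPM in the other 5 libraries, with an adjusted p of 0.521 in edgeR. The cGAS-STING list, which holds Sting1, had 3 of 7 tested above 0 and a median of -0.08, with the kinase Tbk1 at -0.28.

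**Figure D5:**
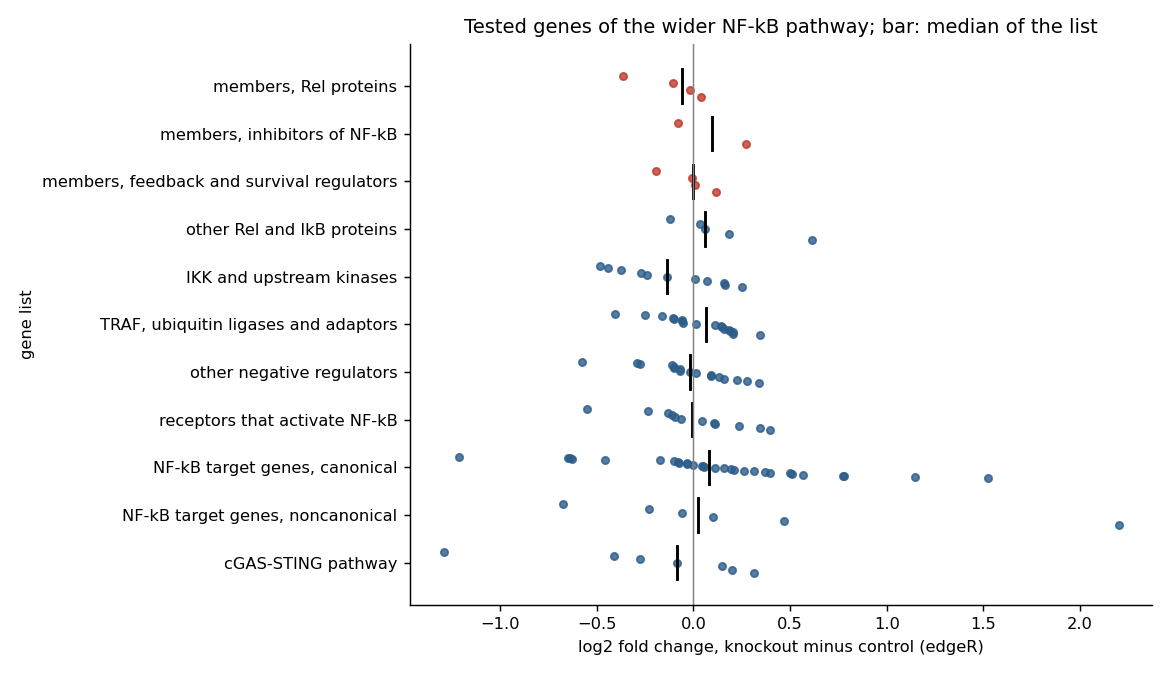
Log2 fold change, knockout minus control, of each tested gene in the 10 NF-kB genes (red, by role) and in 8 further lists (blue), with a bar at the median of each list. The red points span -0.36 to 0.27, and the blue points run from -1.29 for Sting1 to 2.199 for Cxcl13.

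Marker genes of other cells are given beside these results as sums of CPM on the same TMM-scaled library sizes as the NF-kB genes. T and natural killer cell markers, beside Ccl5, stood at 15, 16.2 and 13.6 CPM in control replicates 1 to 3 and 32.6, 23.6 and 16.7 CPM in knockout replicates 1 to 3, with 8 of 10 above 0. All knockout sums lay above all controls, whereas by library totals the groups overlapped. Cd8a, a co-receptor of cytotoxic T cells, was at 1.64 on the log2 scale, with an adjusted p of 0.367 in edgeR and 0.0141 in DESeq2. Nkg7, a cytotoxic granule protein, was at 1.18 and Cd3d, a chain of the T cell receptor complex, at 1.84. In all 3 genes every knockout liver lay above every control, as for 7.25% of all genes tested. These 3 have the smallest p of the list, which favours such a separation, and Cd3g, the next by p, overlapped. Dendritic cell markers, beside Relb, stood at 22.9, 31.7 and 19.9 CPM in the control and 21.5, 20.4 and 22.6 CPM in the knockout livers, overlapping, with 6 of 6 below 0.

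Kupffer cell markers summed to 601.6 to 896.6 CPM in the control and 942.5 to 1208 CPM in the knockout livers, with 8 of 8 above 0. Sinusoidal endothelial markers summed to 415.8 to 480.2 and 516.2 to 554.8 CPM, with 7 of 8 above 0, and hepatocyte markers to 66780 to 123100 and 125400 to 144400 CPM, with 6 of 7 above 0. These 3 lists separated the groups on the TMM scale and overlapped by library totals. The low hepatocyte sum of 66780 CPM was control replicate 2, beside 114700 and 123100 CPM in control replicates 1 and 3. Proliferation markers summed to 54.7 to 127 and 29.7 to 46.9 CPM, with 6 of 6 below 0, and separated the groups on both scales. Their median log2 fold change was -1.26. All 6 had an unadjusted edgeR p under 0.05, against 7% of all genes lower, and DESeq2 called 2, against 0.902% of all genes. At the same unadjusted level 4 of 8 Kupffer cell and 4 of 8 sinusoidal markers were higher, against 3.75% of all genes. Stellate cell markers summed to 405.5 to 634.0 and 373.8 to 421.1 CPM, with 6 of 7 below 0, and overlapped, whereas by library totals all knockout sums lay below the controls. Control replicate 2 held the highest sum of both the proliferation and the stellate cell markers, at 127 and 634.0 CPM.

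The remaining lists overlapped on both scales. Cholangiocyte markers summed to 40.4 to 113 and 14.6 to 43.9 CPM, with 6 of 6 below 0 and a median log2 fold change of -1.41. Of these, 5 of 6 had an unadjusted edgeR p under 0.05, against 7% of all genes lower. DESeq2 called 1, Cftr, at an adjusted p of 0.0318, against 0.902% of all genes. Pan-endothelial markers summed to 193.0 to 231.2 and 230.1 to 245.6 CPM, with 7 of 9 above 0. Neutrophil markers had a median log2 fold change of 1.00, but stood at 74.0 CPM in knockout replicate 1 and at 22.8 and 17.1 CPM in the other knockout livers, beside 17.3, 30.5 and 24.6 CPM in the controls. The medians were 0.00410 for monocyte and recruited macrophage markers and 0.17 for B and plasma cell markers. No marker was at 0 in all libraries, and the part of these cells in the values of the NF-kB genes was not tested.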

How the data were processed

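Messenger RNA was measured in 6 whole-liver libraries, 3 per group. The authors deposited 1 table, which holds an estimated count and a TPM value for each gene and library. The submitters' processing notes name RSEM 1.3.3, HISAT2 2.2.1, fastp 0.23.2 and DESeq2 1.38.3 and the build GRCm38, without their roles. Libraries were strand-specific per the labels. The annotation release and the use of strand in counting are not stated in the sources at hand.

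The estimated counts, of which 6.93% were not whole, were rounded. Knockout was compared with control in edgeR 4.0.16 (TMM, filterByExpr, robust quasi-likelihood test, prior count 2 for log2 CPM) with Benjamini-Hochberg adjustment at 0.05 over 13197 genes. Each standard error is the size of the fold change divided by the root of F. Alternatives were DESeq2 1.42.0, limma 3.58.1 (voom, and log2 of TPM with a pseudocount of 1 or 0.1), other scalings and filters, a replicate block and each library left out. Positions are from GENCODE on GRCm38, and promoters from RefSeq.

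On simulated data for this comparison over 13077 genes, edgeR recovered 55% of 2-fold and 93% of 4-fold changes, with 12 false calls among 160, and DESeq2 68% and 96%, with 38 among 202. The changes were planted only in genes above a minimum count. Counts were drawn independently, without departures that many genes share in a library such as control replicate 2. These shares therefore need not hold for the real libraries, where edgeR called 0 genes. Libraries of a group are described as separate animals, and every pair differed beyond sampling noise. The genes and lists were chosen with earlier results of these data known. Named are the 10 genes, Sting1, up to 4 genes with the smallest p of each list, and the nearest profiles, with Icam1, Il1b and Nos2 added after their values were seen. TMM-scaled marker sums and the counts of the wider pathway under each alternative were also added after seeing the data. Figures were drawn with matplotlib 3.10.9 in Python 3.11.15.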

Additional observations from a re-analysis of the deposited data

How the results depend on the processing

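None of the 10 genes passed the adjusted test under any of the 17 alternatives, where the smallest adjusted p was 0.323, for Birc3 with library totals. An unadjusted p under 0.05 arose with library totals for Relb (0.0483) and Birc3 (0.0437) and on log2(TPM + 1) without the filter for Nfkbia (0.0481). Relb, Birc3 and Nfkbie kept their direction in all 17 alternatives. In the fits that leave out 1 library they ran over -0.473 to -0.27, -0.215 to -0.151 and 0.119 to 0.429. Nfkbie came close to 0 where all genes shifted down. It was at 0.0325 with library totals, 0.0385 on log2(TPM + 1) and 0.0526 on log2(TPM + 0.1). Of the 170 values of all 10 genes, 28 changed sign. All of these belonged to the other 7 genes, each of them at most 0.118 in size under TMM. With library totals Rela was at -0.194, Tnip1 at -0.223 and Traf1 at -0.0989. On log2(TPM + 1), filtered or not, Rela was at -0.231, Tnip1 at -0.222 and Traf1 at -0.309, and on log2(TPM + 0.1) at -0.237, -0.23 and -0.479. Tnip1 was at -0.0118 with upper-quartile scaling, and Tnfaip3 at 0.000696 in DESeq2 and 0.00071 with RLE scaling. Leaving out 1 library gave -0.0235 to 0.14 for Rela, -0.0526 to 0.0766 for Nfkb1, -0.24 to 0.086 for Nfkb2, -0.171 to 0.0384 for Nfkbia, -0.123 to 0.11 for Tnfaip3 and -0.0517 to 0.113 for Tnip1. The median of the 10 ran from -0.0775 to 0.0813 in those fits. It was -0.237 with library totals, -0.282 on log2(TPM + 1) with and without the filter and -0.29 on log2(TPM + 0.1), where all genes shifted as well. The count of genes called was 0 in edgeR, 119 in DESeq2, 5 with the replicate block and 0 to 2 without 1 library. Same-numbered libraries correlated at 0.115, -0.00678 and 0.133 in their deviations from the group means, so that the numbers were not taken to pair the mice, and the replicate block changed no call of the 10 genes. The cause of the other shifts was not tested. Traf1 had 29 to 42 counts per library, which limits its precision.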
